A study of Mus musculus with 6 samples.

Results

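Oxidative phosphorylation is carried out in the inner mitochondrial membrane by 4 electron transport complexes, the carrier cytochrome c and the ATP synthase. Complexes I and II take electrons from NADH and succinate, complex III passes them to cytochrome c, and complex IV, cytochrome c oxidase, hands them to oxygen. Complexes I, III and IV and the ATP synthase mix subunits encoded in the mitochondrial genome with subunits encoded in the nucleus. Several nuclear subunits have paralogs with restricted expression, and the testis has its own forms of cytochrome c (Cyct) and of complex IV subunits 6b, 7b and 8 (Cox6b2, Cox7b2 and Cox8c), which are made by germ cells in meiosis and later.

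The genes described here were all rows of the count table whose symbols name these subunits, with a summed count over the 6 libraries of at least 60. This gave 101 genes of 50763 symbols in the table. They comprised 13 genes of the mitochondrial genome, 40 of complex I, 4 of complex II, 8 of complex III, 2 of cytochrome c, 16 of complex IV and 18 of the ATP synthase. The rule itself used symbols and this limit on low counts. The symbol rule places Ndufa4, which is now counted with complex IV, under complex I, and it takes in Atp5if1, an inhibitor of the ATP synthase, and Cox7a2l, a factor of respiratory supercomplexes. The lowest genes inside the limit were Ndufb4b, Cox7a1 and ATP8, with summed counts of 82, 102 and 116. Below it were Ndufs6b with 58, Ndufb4c with 28, Cox6a2 with 20, Cox8b with 11, Cox6c2 with 10 and Ndufa11b with 1.

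RNA was sequenced from whole mouse testes at postnatal day 14, when the first wave of spermatogenesis has reached meiotic prophase. The sKO group held 3 samples with a conditional knockout of Rif1 in germ cells before meiosis. The WT group held 3 samples labelled wild type. Neither the driver of the deletion nor the strain is stated in the labels. They also do not tie samples to animals, so p-values speak only of variation among these 6 samples, part of which may be technical. Rif1, a regulator of replication timing and of DNA break repair, was measured first as a check of the labels. Its level was 41.9, 46.3 and 49.1 CPM in the sKO libraries and 96.3, 83.5 and 129 CPM in the WT libraries, where CPM is a count scaled to a common library total with TMM factors. The groups did not overlap. In edgeR the log2 fold change was -1.17, with a standard error (SE) of 0.15 and an adjusted p of 0.0145. The edgeR adjusted p of Rif1 was 0.0730 without sKO library 1, 0.120 without sKO library 2 and 0.137 without WT library 2. In these 3 fits edgeR called 0 genes in all. Library totals ranged from 15941672 to 18296594 counts, so that 3 counts, the limit a count of 0 allows, came to 0.164 to 0.188 CPM. This limit covers counting error only.

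All 101 members passed the low-count filter of edgeR, among 18860 genes tested. The adjusted p was under 0.05 and the level lower in sKO for 2 members, Cox6b2 and Ndufb11b, which is 1.98% of the members, against 1.27% of all genes tested. No member was higher at this threshold, against 0.0318% of all genes. At an unadjusted p under 0.05, 6 members were lower (5.94%, against 8.54% of all genes) and 0 were higher (5.06% of all genes). The groups did not overlap, with sKO lower, for 6 members (5.94%, against 10.7% of all genes), and with sKO higher for 2 members (1.98%, against 9.58%), Cox7a1 and Cox7a2l, of which Cox7a2l was chosen after its values were seen. The 6 lower ones were Ndufb11b, Sdha, Cyct, Cox6b2, Cox8c and Cox7b2. These shares lay near or below those of all genes tested. The members with a log2 fold change below -1 were the 4 testis forms and Ndufb11b. In whole-tissue RNA, fewer cells of a type and less RNA per cell cannot be told apart.

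**Figure D1:**
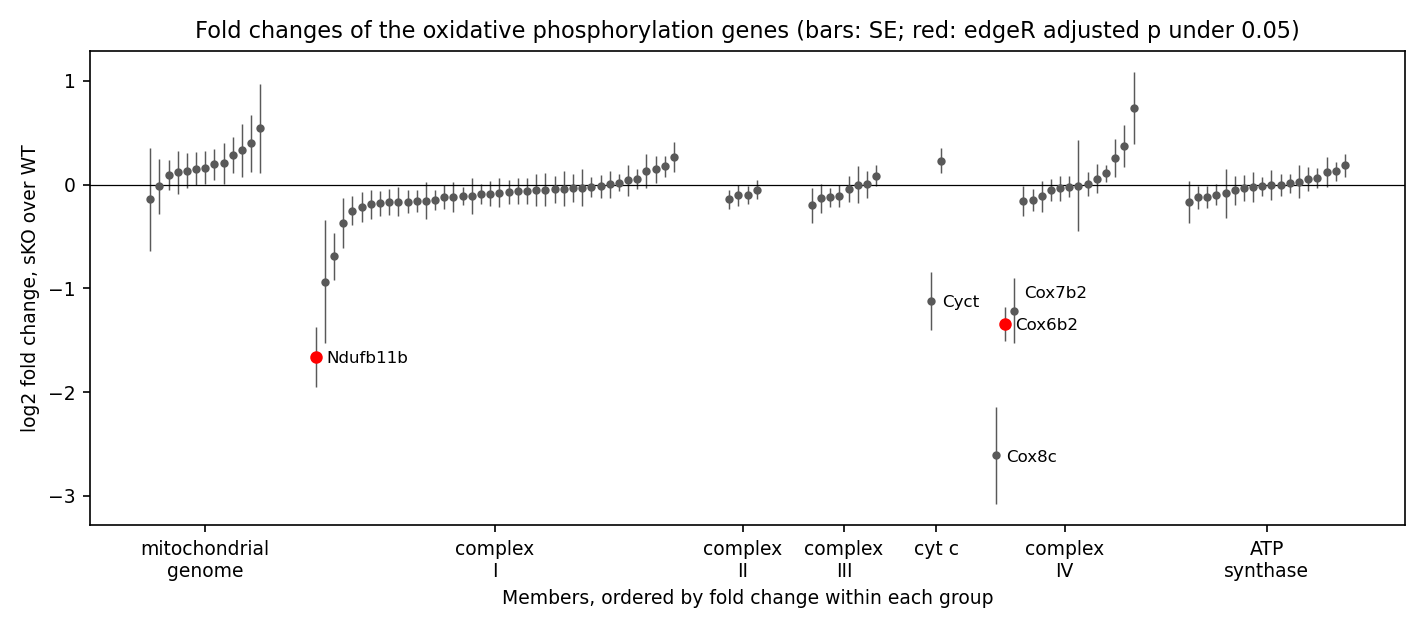
Log2 fold change of sKO over WT (y axis) for the 101 genes, grouped by complex and ordered by value along the x axis, with bars of 1 standard error. Red points mark the 2 genes with an edgeR adjusted p under 0.05. Most points lie near 0, with a median of -0.04, while Ndufb11b, Cyct, Cox8c, Cox6b2 and Cox7b2 lie below -1.

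The testis forms and their widespread partners are the pairs on which the results turn, so the 250 bases before the transcription start are shown for 3 of the 4 pairs. They are from RefSeq on GRCm38.p6, read 5′ to 3′ on the strand of the gene, with each CG dinucleotide in capitals.
Cyct, chr2:76360454-76360703, minus strand: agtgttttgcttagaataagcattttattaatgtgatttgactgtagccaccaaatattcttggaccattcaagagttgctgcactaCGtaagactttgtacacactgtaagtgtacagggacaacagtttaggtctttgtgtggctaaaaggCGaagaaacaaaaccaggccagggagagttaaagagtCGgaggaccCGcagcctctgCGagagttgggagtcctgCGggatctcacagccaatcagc
Cycs, chr6:50566570-50566819, minus strand: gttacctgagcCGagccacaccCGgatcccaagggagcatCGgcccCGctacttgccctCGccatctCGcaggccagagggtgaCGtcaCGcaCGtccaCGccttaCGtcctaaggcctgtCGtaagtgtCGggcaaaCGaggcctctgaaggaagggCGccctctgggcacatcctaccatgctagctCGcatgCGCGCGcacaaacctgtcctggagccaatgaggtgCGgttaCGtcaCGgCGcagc
Cox6b2, chr7:4753095-4753344, minus strand: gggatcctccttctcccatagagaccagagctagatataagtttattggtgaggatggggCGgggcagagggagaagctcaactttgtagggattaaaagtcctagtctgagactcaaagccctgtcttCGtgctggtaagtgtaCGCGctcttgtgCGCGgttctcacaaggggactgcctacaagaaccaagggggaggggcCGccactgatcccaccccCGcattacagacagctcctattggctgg
Cox6b1, chr7:30626115-30626364, minus strand: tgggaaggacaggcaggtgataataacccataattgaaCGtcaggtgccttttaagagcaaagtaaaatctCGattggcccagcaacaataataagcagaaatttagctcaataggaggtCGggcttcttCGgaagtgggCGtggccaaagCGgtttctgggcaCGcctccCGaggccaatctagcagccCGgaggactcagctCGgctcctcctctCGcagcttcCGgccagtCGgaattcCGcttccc
Cox7b2, chr5:71548206-71548455, minus strand: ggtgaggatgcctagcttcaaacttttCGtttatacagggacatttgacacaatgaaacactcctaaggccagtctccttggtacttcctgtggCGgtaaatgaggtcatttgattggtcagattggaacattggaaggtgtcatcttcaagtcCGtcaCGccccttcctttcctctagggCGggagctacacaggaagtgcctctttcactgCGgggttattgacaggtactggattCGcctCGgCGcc
Cox7b, chrX:106015450-106015699, plus strand: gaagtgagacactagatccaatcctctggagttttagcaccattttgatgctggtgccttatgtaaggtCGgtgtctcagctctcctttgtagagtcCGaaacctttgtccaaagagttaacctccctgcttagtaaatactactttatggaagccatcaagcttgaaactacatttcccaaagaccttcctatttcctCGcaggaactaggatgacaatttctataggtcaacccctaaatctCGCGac

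The 3 testis promoters held 6, 8 and 9 CG dinucleotides for Cyct, Cox6b2 and Cox7b2. Their partners held 23 for Cycs, 14 for Cox6b1 and 5 for Cox7b, against a median of 6 over all 32851 promoters in the table. A promoter was in the table for 70 of the 88 nuclear members, 75 promoters in all, and the 72 that do not belong to testis forms had a median of 14 CG dinucleotides. Both strands were searched for 4 motifs. The motif of nuclear respiratory factor 1, GCGC and TGCGC with any 1 base between them, was in 0 of the 3 testis promoters and in 14 of the 72 others (19.4%), against 3.7% of all promoters. The motif CCGGAAG of GABP, also called nuclear respiratory factor 2, was in 0 of the 3 and in 12 of the 72 (16.7%), against 6.9% of all. The cyclic AMP response element, TGACGTCA, was in 0 of the 3 and in 5 of the 72 (6.9%), against 1.5% of all, and one copy lies in the Cycs sequence above. The short CCAAT box was in all 3 and in 29 of the 72 (40.3%), against 33.8% of all promoters. A match describes letters in this window only.

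All 4 testis forms had lower levels in every sKO library than in any WT library, and 1 of the 4 passed the test. Cox6b2, a testis form of the complex IV subunit that bridges the oxidase dimer, was at 19.4, 22.7 and 22.8 CPM in the sKO libraries and at 64.4, 59.6 and 40.6 CPM in the WT libraries. Every sKO library was below every WT library. It fell 2.54-fold (log2 fold change -1.34, SE 0.17, edgeR adjusted p = 0.0145). Leaving out any of 3 libraries ended the call. The edgeR adjusted p was 0.0649 without sKO library 1, 0.120 without sKO library 2 and 0.137 without WT library 2. In these 3 fits edgeR called 0 genes in all. With 1 library left out, the log2 fold change of Cox6b2 ran from -1.52 to -1.21.

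Cox8c, the testis form of the small subunit 8, was at 2.58, 3.56 and 4.88 CPM in sKO and at 36.2, 20.8 and 10.5 CPM in WT. The groups did not overlap, and the WT libraries differed among themselves by more than the sKO libraries. Its log2 fold change was -2.61 (SE 0.47), the lowest of the 101 genes, with an edgeR adjusted p of 0.0510. With library totals only, upper-quartile factors or mitochondrial counts left out of the totals, the edgeR adjusted p was 0.0390, 0.0416 and 0.0474, on the other side of the threshold. Cyct, the cytochrome c of spermatocytes and sperm, was at 8.09, 9.31 and 12.2 CPM in sKO and at 31.7, 18.1 and 14.6 CPM in WT. Here too the groups did not overlap, and sKO library 3 was the nearest to the WT libraries. The log2 fold change was -1.12 (SE 0.28, edgeR adjusted p = 0.0901). Cox7b2, the testis paralog of Cox7b, was at 10.9, 12.1 and 19.0 CPM in sKO and at 47.9, 26.6 and 23.1 CPM in WT, with a log2 fold change of -1.21 (SE 0.31, edgeR adjusted p = 0.119).

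The widespread partners had estimates slightly above 0. Cycs, the cytochrome c of somatic cells and early germ cells, averaged 238 ± 13.9 CPM in sKO and 203 ± 33.1 CPM in WT (SD, n = 3 each), with a log2 fold change of 0.23 (edgeR adjusted p = 0.444). Cox6b1 averaged 58.8 ± 8.82 CPM in sKO and 56.6 ± 7.52 CPM in WT (SD, n = 3 each), with a log2 fold change of 0.06 (edgeR adjusted p = 0.90). Cox7b, on the X chromosome, had a log2 fold change of 0.37 (edgeR adjusted p = 0.470), and Cox8a one of 0.26 (edgeR adjusted p = 0.573). For each of these 4 partners the groups overlapped. Divided by transcript length, the mean level of Cox6b2 was 36.9 CPM per kilobase in sKO and 93.8 in WT, and that of Cox6b1 was 95.2 in sKO and 91.6 in WT. Cox7b2 was at 25.9 CPM per kilobase in sKO and 60.0 in WT, against 26.4 in sKO and 20.4 in WT for Cox7b. Cyct stayed below Cycs on this scale. It was at 15.1 in sKO and 32.8 in WT, against 76.3 in sKO and 64.9 in WT for Cycs.

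**Figure D2:**
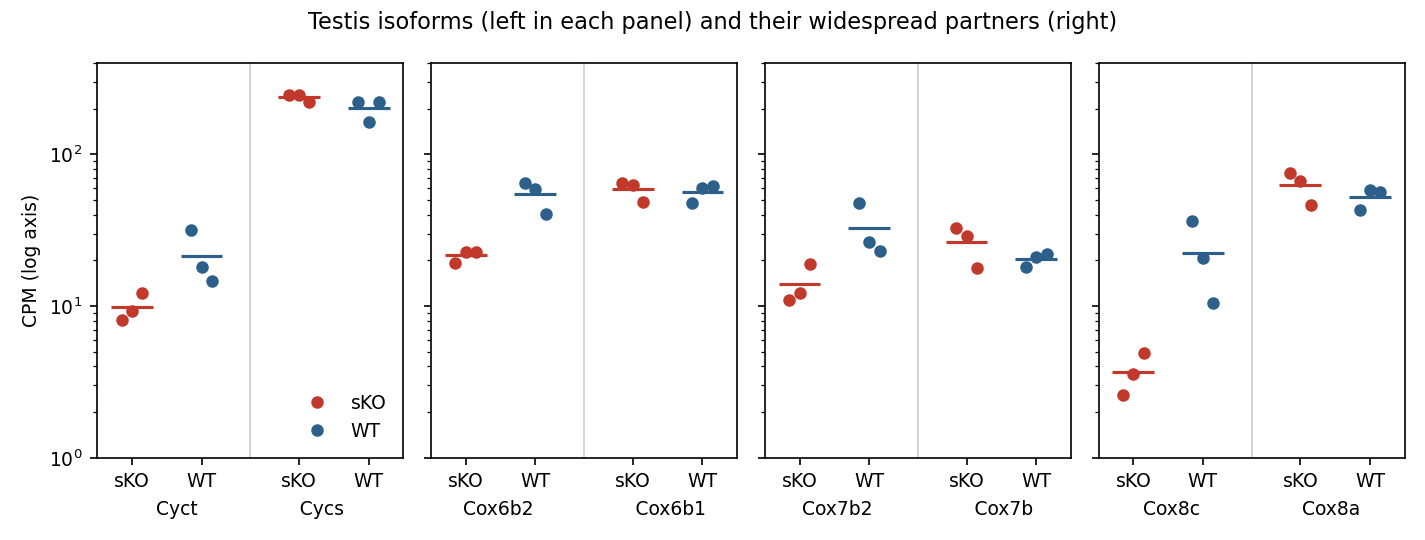
Level in CPM on a log axis of each testis form (left of the grey line in each panel) and its widespread partner (right), with 1 point per library, sKO left of WT, and a line at the group mean. Cox8c averages 3.68 CPM in sKO and 22.5 CPM in WT, while Cox8a averages 62.8 CPM in sKO and 52.6 CPM in WT.

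A ratio of paralogs within a library does not depend on how libraries are scaled. For every 100 counts of Cox6b1 there were 29.7, 36.3 and 46.7 counts of Cox6b2 in the sKO libraries and 134, 99.9 and 65.3 in the WT libraries. The Cox6b2 to Cox6b1 ratio differed by -1.37 log2 units, without overlap. For every 100 counts of Cox8a there were 3.42, 5.32 and 10.5 counts of Cox8c in sKO and 84.1, 35.4 and 18.8 in WT, a log2 difference of -2.72. For every 100 counts of Cycs there were 3.29, 3.77 and 5.50 counts of Cyct in sKO and 14.2, 11 and 6.63 in WT, a log2 difference of -1.31. The Cox7b2 to Cox7b ratio differed by -1.51 log2 units with overlapping groups, since sKO library 3 had 107 counts of Cox7b2 for every 100 of Cox7b and WT library 3 had 105. There were 10 such ratios compared, and with 3 against 3 samples the smallest two-sided exact permutation p is 0.1. The ratios of Cox6b2, Cox8c and Cyct each reached it, with an adjusted value of 0.2 over the 10 pairs, and that of Cox7b2 had an exact permutation p of 0.2.

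Most paralogs restricted to other tissues were at low levels. Cox7a1, the form of striated muscle and brown fat, was at 1.5, 1.03 and 1.21 CPM in sKO and at 0.839, 0.764 and 0.621 CPM in WT, from 10 to 25 counts per library. Its groups did not overlap, and its log2 fold change was 0.74 (SE 0.35, edgeR adjusted p = 0.387). The summed level of 12 striated muscle markers was 75.3, 62.4 and 52.7 CPM in sKO and 42.8, 54.4 and 61.4 CPM in WT, and their part in the Cox7a1 values was not tested. The Cox7a1 to Cox7a2 ratio was higher in sKO by 0.89 log2 units (exact permutation p = 0.1). Ndufa4l2, a paralog of Ndufa4 linked to hypoxia, averaged 2.42 ± 0.424 CPM in sKO and 3.13 ± 0.291 CPM in WT (SD, n = 3 each), with a log2 fold change of -0.37 (edgeR adjusted p = 0.551). Its ratio to Ndufa4 differed by -0.51 log2 units without overlap (exact permutation p = 0.1). The Cox4i2 to Cox4i1 ratio, the lung form over the widespread form, differed by 0.13 log2 units (exact permutation p = 0.9). The Atp5mc1 to Atp5mc3 ratio, between genes that encode the same mature subunit c of the ATP synthase, differed by -0.03 log2 units (exact permutation p = 0.5). Cox6a2 and Cox8b, below the count limit, had from 0 to 5 counts per library.

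The testis forms were read beside markers of pachytene spermatocytes, the stage of meiotic prophase at which homologous chromosomes are fully paired. The summed level of the 4 testis forms was 40.9, 47.7 and 58.9 CPM in sKO and 180, 125 and 88.9 CPM in WT. The summed level of 16 pachytene marker genes was 316, 353 and 525 CPM in sKO and 1606, 1088 and 774 CPM in WT. The 6 libraries had the same order for both sums. Part of this order follows from the groups, which did not overlap for either sum. Id4, a spermatogonia marker, and Spo11, a marker of earlier meiotic prophase, had the same order. These 2 genes were chosen after their values were seen. Of the 16 markers, 13 were tested, and none was at 0 in all 6 libraries. At an edgeR adjusted p under 0.05, 4 were lower in sKO, against 1.27% of all genes tested. At this threshold 0 were higher, against 0.0318% of all genes. The log2 fold changes of the tested markers had a median of -1.58 and ran from -4.16 to -0.15. For every 100 CPM of the markers there were 13, 13.5 and 11.2 CPM of the testis forms in sKO and 11.2, 11.5 and 11.5 CPM in WT. This ratio was chosen after the values were seen. As a ratio of sums it rests most on the abundant markers, and it does not give how each form stood to the markers. Ybx2 and Hspa2, chosen after their values were seen, had the highest marker levels in both groups. Their log2 fold changes were -1.55 and -1.41. The log2 fold change was -2.61 for Cox8c, against -1.34, -1.21 and -1.12 for Cox6b2, Cox7b2 and Cyct. The part of these markers' cells in the values of the testis forms was not tested.

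**Figure D3:**
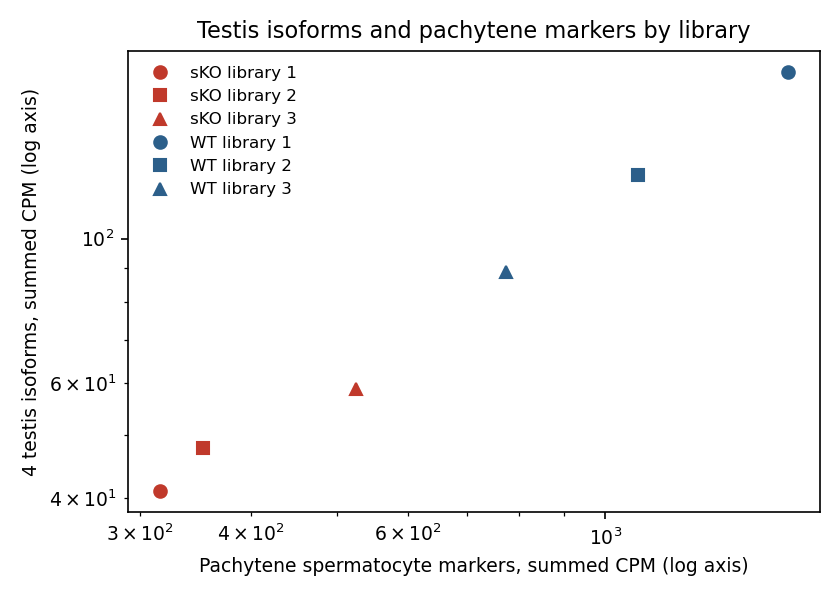
Summed CPM of the 4 testis forms (y axis, log) against summed CPM of 16 pachytene markers (x axis, log), 1 point per library. The sKO libraries lie at 316 to 525 CPM of the markers and the WT libraries at 774 to 1606 CPM. The order of the libraries is the same on both axes, in part because the groups lie apart on each.

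The other marker lists were read from the same fit. For leptotene and zygotene markers, of earlier meiotic prophase, the median log2 fold change was -0.55. Of these 14, 1 was lower at an edgeR adjusted p under 0.05, against 1.27% of all genes tested. For spermatogonia markers the median was 0.11, with 0 called. All 14 Sertoli cell markers had a higher estimate in sKO, against 10423 of the 18860 genes tested. Their median was 0.21, with 0 called. The medians were 0.31 for Leydig cells, 0.29 for peritubular myoid cells, 0.38 for macrophages, 0.25 for endothelial cells and 0.31 for striated muscle, with 0 called in each. The median was -0.25 for adipose tissue and -0.29 for red blood cells, again with 0 called. Of 12 spermatid markers, 4 were tested, with 0 called. Epididymis markers stood out in 1 library, with a summed level of 175, 29.6 and 13.9 CPM in sKO and 13.3, 30.4 and 20.8 CPM in WT, and 0 of 6 tested were called.

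Complex I, which pumps protons as it oxidises NADH, had 40 nuclear members with a median log2 fold change of -0.08, against 0.03 over all genes tested. Estimates were lower for 32 and higher for 8, against 8437 lower and 10423 higher of the 18860 genes tested. The median difference from the WT mean was 0.01, 0.01 and -0.32 log2 units in sKO libraries 1, 2 and 3. In WT libraries 1, 2 and 3 it was -0.05, 0.04 and -0.04. With 1 library left out the median log2 fold change ran from -0.14 to -0.02, the value nearest 0 without sKO library 3. Ndufb11b was at 2.82, 4.05 and 5.76 CPM in sKO and at 18.1, 11.8 and 10.2 CPM in WT, so the groups did not overlap. It fell 3.17-fold (log2 fold change -1.66, SE 0.29, edgeR adjusted p = 0.0314). This call ended under limma-voom, at an adjusted p of 0.0584. Under edgeR it ended without sKO library 1, sKO library 2 or WT library 2, at adjusted p of 0.10, 0.178 and 0.147. In these 3 edgeR fits 0 genes were called in all. With 1 library left out, the log2 fold change of Ndufb11b ran from -1.995 to -1.384. The 6 libraries had the same order for Ndufb11b as for the summed pachytene markers, whose part in its values was not tested. Id4 of the spermatogonia list and Spo11 of the leptotene and zygotene list, chosen after their values were seen, also had this order. The sums of those lists did not. No role is given for Ndufb11b in the reference tables used. Ndufb11, the similarly named subunit on the X chromosome, was chosen after its values were seen and had a log2 fold change of 0.27 (edgeR adjusted p = 0.470). Reads shared between such copies cannot be told apart in these counts. Ndufa12, an accessory subunit, was at 27.6, 16.6 and 17.4 CPM in sKO and at 32.6, 41.2 and 25.6 CPM in WT. Its groups overlapped through sKO library 1, and its log2 fold change was -0.69 (SE 0.22, edgeR adjusted p = 0.190). Ndufv1, the core subunit that binds NADH and the most abundant nuclear member of the complex, averaged 157 ± 7.34 CPM in sKO and 169 ± 6.93 CPM in WT (SD, n = 3 each), with a log2 fold change of -0.11 (edgeR adjusted p = 0.624).

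In complex II, succinate dehydrogenase, all 4 genes had a lower estimate in sKO, against 8437 of the 18860 genes tested. Their median log2 fold change was -0.10. Sdha, the catalytic flavoprotein, was at 298, 280 and 279 CPM in sKO and at 316, 304 and 299 CPM in WT. Its groups did not overlap, but the difference was small, with a log2 fold change of -0.10 (SE 0.08, edgeR adjusted p = 0.639). Sdhc, a membrane anchor, had a log2 fold change of -0.14 (edgeR adjusted p = 0.536). Complex III had a median of -0.07 over 8 genes. Its core subunits Uqcrc1 and Uqcrc2 had log2 fold changes of -0.11 and -0.12, and Uqcr11, a small accessory subunit, one of -0.20, with edgeR adjusted p of 0.704, 0.612 and 0.656.

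Over the 11 complex IV genes outside the tissue forms the median log2 fold change was -0.02. Over all 16 it was -0.03, and with 1 library left out it ran from -0.10 to 0.03, above 0 without sKO library 3 or WT library 2. Cox4i1, the most abundant of them, averaged 263 ± 38.0 CPM in sKO and 270 ± 21.2 CPM in WT (SD, n = 3 each), with a log2 fold change of -0.04 (edgeR adjusted p = 0.921). The median was -0.01 over the 18 ATP synthase genes, and ran from -0.09 to 0.06 with 1 library left out, again above 0 without sKO library 3 or WT library 2. Atp5f1b, the catalytic beta subunit and the highest of all nuclear members, was at 789, 743 and 680 CPM in sKO and at 715, 741 and 735 CPM in WT, with a log2 fold change of 0.01 (SE 0.09, edgeR adjusted p = 0.965). Atp5if1 and Atp5f1c, the gamma subunit of the rotating stalk, had log2 fold changes of 0.19 and 0.13 (edgeR adjusted p = 0.507 and 0.587).

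Outside the tissue forms and the members at an unadjusted p under 0.05, there were 79 nuclear members. Their log2 fold changes ran from -0.94 for Ndufb4b, a gene of 3 to 31 counts per library that was chosen after its values were seen, to 0.37 for Cox7b, and 72 lay within 0.2 of 0. The standard error had a median of 0.12 over these genes. Their choice left out Ndufb11b (-1.66) and Ndufa12 (-0.69) by p-values of the same fit. It therefore sets part of this closeness to 0. Part of the spread came with 1 library. The median difference of the nuclear members from the WT mean was 0.06, 0.03 and -0.27 log2 units in sKO libraries 1, 2 and 3, and -0.05, 0.05 and -0.03 in WT. In sKO library 3 the medians of complexes I to IV and of the ATP synthase were each lower than in any other library. Across 82 nuclear members with a length, Spearman's rho between transcript length and the library's deviation was -0.12, -0.17 and 0.39 in sKO and 0.18, -0.36 and -0.06 in WT, a description over genes that share each library. The part of length in these deviations was not tested. Leaving out 1 library at a time, the median log2 fold change of the nuclear members ran from -0.12 to 0.003, the highest value without sKO library 3.

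**Figure D4:**
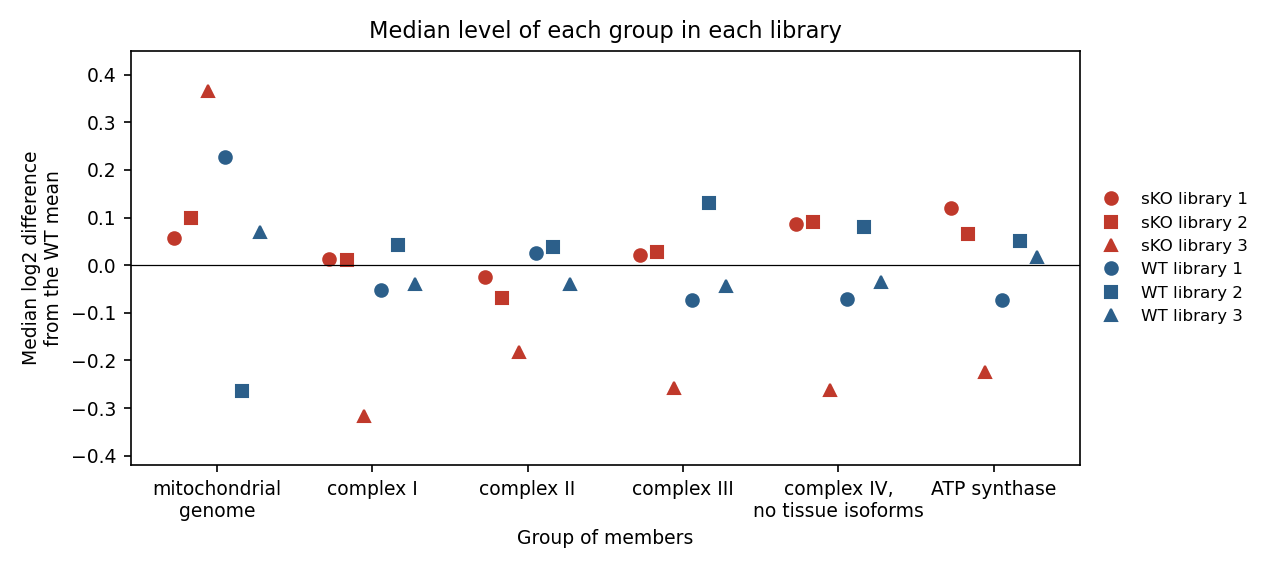
Median log2 difference from the WT mean (y axis) of the members of each group (x axis), with 1 point per library and the sKO libraries left of the WT libraries. In sKO library 3 the mitochondrial genes have the highest median, at 0.37, and complex I the lowest, at -0.32.

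The 13 genes of the mitochondrial genome encode core subunits of complexes I, III and IV and of the ATP synthase. Together they took 2.32, 2.42 and 3.01% of the counts in the sKO libraries and 2.79, 1.89 and 2.33% in the WT libraries. The share averaged 2.58 ± 0.372% in sKO and 2.34 ± 0.448% in WT (SD, n = 3 each), a difference of 0.245 percentage points that was within the spread between libraries (exact permutation p = 0.5). With 1 library left out it ran from 0.0232 without WT library 2 to 0.471 without WT library 1, and it lay near the low end without sKO library 3. The 88 nuclear members took 0.789, 0.776 and 0.665% in sKO and 0.751, 0.801 and 0.767% in WT (exact permutation p = 0.7). The groups overlapped for each of the 13 genes, and the lowest edgeR adjusted p was 0.516, for ATP6. Their median log2 fold change was 0.16, with 11 estimates higher and 2 lower, against 10423 higher and 8437 lower over all genes tested. Without 1 library at a time the median ran from 0.02 to 0.29.

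COX1, the catalytic subunit of complex IV, had the highest level, at 11856, 12433 and 14941 CPM in sKO and at 14323, 9412 and 11581 CPM in WT. Its log2 fold change was 0.15 (SE 0.16, edgeR adjusted p = 0.727). CYTB, the cytochrome b of complex III, averaged 4124 ± 501 CPM in sKO and 3865 ± 738 CPM in WT (SD, n = 3 each), a log2 fold change of 0.09. Of the complex I genes, ND1, ND5, ND4, ND2 and ND6 had log2 fold changes of 0.21, 0.16, 0.19, 0.12 and 0.33. ND3 and ND4L had the 2 lower estimates, -0.14 (SE 0.50) and -0.02 (SE 0.26), at mean levels of 6.24 and 3.95 CPM in sKO and 6.90 and 4.0 CPM in WT. COX2, COX3, ATP6 and ATP8 had log2 fold changes of 0.40, 0.13, 0.29 and 0.54. For ND1, ND2, ND4, ND5, ND6, CYTB and COX1 the highest libraries were sKO library 3 and WT library 1, which are in different groups.

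Apart from ATP8, the high and low mitochondrial genes differed in whether a nearly identical nuclear transcript is annotated over nearly their whole length. In the mouse GENCODE annotation, a nuclear pseudogene transcript of at least 99% identity covered 99 to 99.9% of COX2, COX3, ATP6, ND3 and ND4L. These 5 genes had 1.36 to 11.05 counts per base over the 6 libraries. Such a transcript covered 63.6% of ND4 and 31.3% of COX1, and none was found for CYTB, ND1, ND2, ND5, ND6 and ATP8. Nuclear copies outside annotated transcripts were not searched. The 7 genes apart from these 5 and ATP8 had 111 to 828 counts per base. ATP8, which overlaps ATP6 on the same strand, had 0.569. The sources used here do not say how reads with several equal matches were counted, so the levels of COX2, COX3, ATP6, ND3 and ND4L are uncertain. The same holds for ATP8 and for ND4L where it overlaps ND4. The median log2 fold change was 0.13 over these 5 genes and 0.18 over the other 8, with 0 called in either set.

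**Figure D5:**
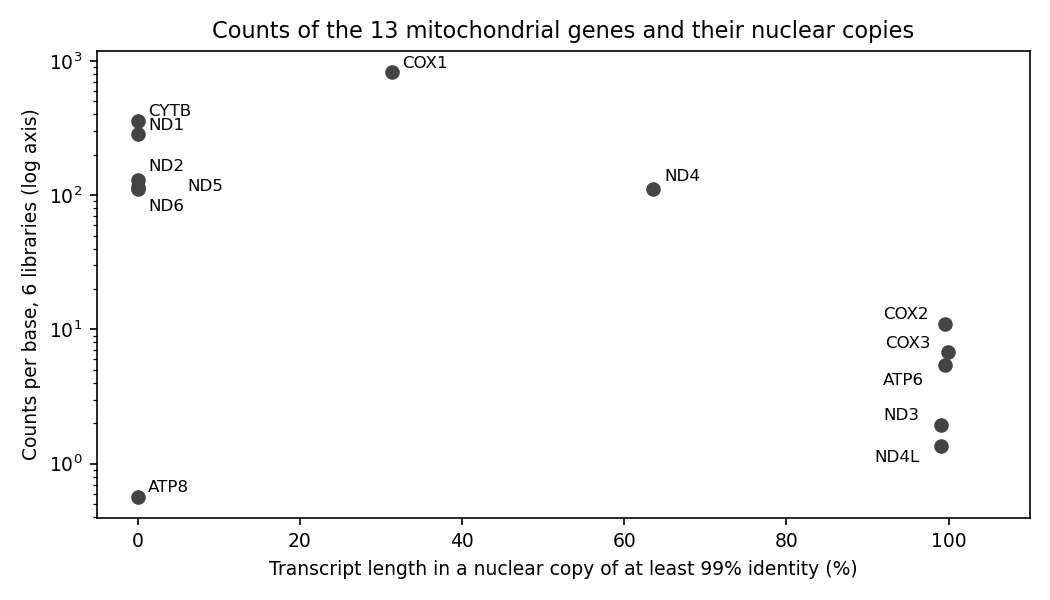
Counts per base of transcript over the 6 libraries (y axis, log) of the 13 mitochondrial genes. The x axis is the percent of the transcript found in an annotated nuclear copy of at least 99% identity. The 5 genes covered by a copy lie at 1.36 to 11.05 counts per base, and the 7 without one or with a partial one, ATP8 aside, at 111 to 828.

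Factors that build the complexes and express the mitochondrial genome were read from the same fit, list by list. Of 16 complex I assembly factors tested, 1, Ndufaf3, was lower in sKO at an edgeR adjusted p under 0.05, against 1.27% of all genes. In this list 0 were higher, against 0.0318% of all genes. Ndufaf3 was at 8.57, 12.6 and 15.9 CPM in sKO and at 38.7, 32.5 and 23.1 CPM in WT. Every sKO library was below every WT library, in the order of the summed pachytene markers, which Id4 and Spo11 shared. The part of the pachytene markers was not tested. Ndufaf3, a factor of early complex I assembly, fell with a log2 fold change of -1.35 (SE 0.24, edgeR adjusted p = 0.0336). Its call ended under limma-voom, at an adjusted p of 0.0590. It also ended when sKO library 1, sKO library 2, WT library 1 or WT library 2 was left out. The edgeR adjusted p was then 0.0967, 0.182, 0.0730 and 0.158. Without sKO library 1, sKO library 2 or WT library 2, edgeR called 0 genes in all. With 1 library left out, the log2 fold change of Ndufaf3 ran from -1.606 to -1.142. Ndufaf5, a hydroxylase of the complex I subunit Ndufs7, had a log2 fold change of 0.39 (edgeR adjusted p = 0.343).

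No call was made in the other lists, which held 13 tested factors for complexes II and III, 23 for complex IV, 5 for the ATP synthase, 28 genes of mitochondrial DNA expression, 12 regulators of mitochondrial biogenesis, 15 carriers and pyruvate dehydrogenase genes and 12 genes of the tricarboxylic acid cycle. Their median log2 fold changes lay between -0.03 and 0.07. The genes of smallest p in these lists were Sdhaf3 (0.27) and Uqcc2 (-0.22), Cox20 (-0.40) and Higd1a (-0.13), Tmem70 (-0.19) and Tmem242 (0.06), Fastkd3 (0.24) and Twnk (-0.18), Perm1 (-0.58) and Ppargc1a (0.48), Vdac1 (0.28) and Pdhb (-0.32), and Suclg2 (0.22) and Fh1 (0.12), where the values are log2 fold changes. Twnk is the mitochondrial DNA helicase, Vdac1 the main pore of the outer membrane, and Ppargc1a a coactivator of mitochondrial genes. Tfam, which packages mitochondrial DNA and was chosen after its values were seen, had a log2 fold change of 0.11 (edgeR adjusted p = 0.689). Pdha2, the testis form of the pyruvate dehydrogenase alpha subunit, was also chosen after its values were seen. It was at 12.9, 14.7 and 28.3 CPM in sKO and at 66.9, 40.7 and 30.0 CPM in WT, with a log2 fold change of -1.30 (SE 0.41, edgeR adjusted p = 0.234). Its X-linked partner Pdha1 had a log2 fold change of 0.36 (edgeR adjusted p = 0.255).

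The count of members called depended on the test. DESeq2 called 6 members lower (5.94%, against 3.82% of all genes tested), Cox6b2, Cox7b2, Cox8c, Cyct, Ndufa12 and Ndufb11b. These are the same 6 that edgeR gave at an unadjusted p under 0.05. limma-voom called 1, Cox6b2, against 0.0795% of all genes tested. No member was called higher under either.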

How the data were processed

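RNA sequencing measured 3 sKO and 3 WT testis samples at postnatal day 14. The values are raw counts per gene symbol that the authors deposited in 1 table, made with Trim Galore, HISAT2 and featureCounts on mm39, per the submitters' processing notes. The sources used here give no versions, annotation, strand setting or treatment of reads with several matches. The columns named con and scKO were read as WT and sKO.

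sKO was tested against WT with edgeR 4.0.16 in R 4.3.3 (filterByExpr, TMM, robust quasi-likelihood F test, no covariates, Benjamini-Hochberg over all genes tested). Paralog ratios used counts plus 0.5 and two-sided exact permutation tests. DESeq2 1.42.0 (Wald test) and limma 3.58.1 (voom) were alternatives, with other scalings, filters and each library left out. Per-length levels and nuclear copies (blastn 2.17.0, at least 99% identity) used GENCODE M21 transcripts, and promoters used RefSeq on GRCm38.p6.

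Members and lists were chosen with earlier results of these data known. Genes named are Rif1, the mitochondrial genes, paralog pairs, called members, the most abundant member and the 2 of smallest p in each nuclear complex, and the 2 of smallest p in each pathway list. Replicate pairs within a group differed beyond sampling noise, at 4.70 to 23.2 chi-square units for each degree of freedom.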

Additional observations from a re-analysis of the deposited data

How the results depend on the processing

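The 2 members called lower (1.98%, against 1.27% of all genes tested) became 6 with DESeq2 (5.94%, against 3.82%), 6 with no low-count filter (5.94%, against 2.83%) and 1 with limma-voom (0.99%, against 0.0795%). They became 5 without both sKO library 3 and WT library 1, an alternative chosen after seeing the data (4.95%, against 3.65%), and 0 to 5 with each library left out. The count was 0 without sKO library 1, sKO library 2 or WT library 2, where edgeR called 0 genes in all and 6, 7 and 5 members were lower at an unadjusted p under 0.05. It was 4 without sKO library 3 (3.96%, against 3.23% of all genes), 3 without WT library 1 (2.97%, against 0.524%) and 5 without WT library 3 (4.95%, against 2.58%). No member was called higher under any alternative run. The numbers of the replicates did not pair the libraries (correlations of deviations -0.34, 0.12 and -0.28). The highest such correlation across the groups was 0.45, between sKO library 3 and WT library 1. With the replicate number as a block, 1 member was called lower (0.99%, against 0.111% of all genes). At least 1 of the calls of Cox6b2 and Ndufb11b therefore ended with the block.

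The isoform ratio Cox8b/Cox8a, from at most 4 counts of Cox8b per library, was higher in sKO by 1.74 log2 units and moved to 0.488 with a pseudocount of 3 and to 3.18 with 0.1.

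Small estimates changed sign. ND3 was at 0.0755 with limma-voom, 0.0362 with the replicate block and 0.0666 without both libraries. ND4L was at 0.0139 with limma-voom and 0.00876 with the block, and Cox4i2 at 0.0861 and 0.0455. Without both libraries Cox4i1 was at 0.00313 and Cox7a2 at 0.0606. Atp5f1b was at -0.00372 with DESeq2, -0.00371 with RLE factors, -0.00198 with library totals only and -0.000617 with mitochondrial counts left out of the totals. With 1 library left out, the log2 fold change ran from -0.0346 to 0.278 for COX3, -0.0418 to 0.252 for CYTB, -0.0791 to 0.359 for ND2, -0.55 to 0.39 for ND3, -0.15 to 0.27 for ND4L, -0.0437 to 0.285 for ND5, -0.36 to 0.45 for Cox4i2, -0.0827 to 0.163 for Atp5mc1, -0.049 to 0.140 for Cox6b1, -0.0984 to 0.0436 for Cox4i1, -0.209 to 0.035 for Cox6a1, -0.0329 to 0.137 for Atp5mc3, -0.0358 to 0.0337 for Atp5f1b and -0.0309 to 0.105 for Tmem242. The causes were not tested. Of the genes named here, Cox7a2 kept its sign with 1 library left out (-0.243 to -0.0324), and Tmem242 kept its sign without both libraries (0.156).

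The median of the testis forms ran from -1.47 to -1.02 with 1 library left out. Depth limits ATP8, Cox7a1, Cox4i2 and Ndufb4b, each with few counts per library.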
